A study of Mus musculus with 8 samples.

Results

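The genes of the SNARE and exocytosis machinery were compared between mouse eosinophils of 2 tissues, bone marrow and small intestine. Members were taken by gene symbol: the syntaxins (Stx), the syntaxin-binding proteins (Stxbp), the vesicle-associated membrane proteins (Vamp), the SNAP proteins, the Munc13 priming factors (Unc13), the synaptotagmins (Syt) and the synaptotagmin-like proteins (Sytl). Of 38392 genes in the table, 60 matched, and 41 of these had a mean of at least 10 reads over the libraries. RNA-seq was done on 4 libraries per tissue, all from female wildtype C57/BL6 mice, and the sample titles use different numbers for the 2 tissues. Bone marrow eosinophils were sorted as CD11b+Ly6G-Ly6C-SiglecF+SSChi cells from marrow flushed with buffer. Intestinal eosinophils were sorted as CD11b+MHC-II-SiglecF+SSChi cells after chemical removal of the epithelium, warm collagenase digestion and enrichment on CD11b beads. Tissue and handling therefore cannot be told apart. Libraries carry the tissue and a number. Values per library follow the order BM_1, BM_3, BM_4, BM_5 (bone marrow) and SI_10, SI_11, SI_6, SI_7 (small intestine, or intestine for short).

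SNARE proteins are short membrane-anchored proteins that pull a vesicle onto its target membrane. A vesicle SNARE of the VAMP family winds together with a syntaxin and a SNAP protein on the target side, and the resulting coil drives fusion. Munc18 proteins, encoded by Stxbp genes, hold the syntaxin and guide assembly, Munc13 proteins prime the docked vesicle, and synaptotagmins and synaptotagmin-like proteins couple fusion to calcium or to Rab27. Eosinophils store cationic proteins in crystalloid granules and release them through this machinery, either granule by granule or in small vesicles that bud from a granule, which is known as piecemeal degranulation.

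The promoters of some of the members with large differences between the tissues are shown first. Others that differed by more than Snap23 does, among them Unc13b, Sytl2 and Syt15, are not shown. Each window runs from 250 bases before to 50 bases after a RefSeq transcript start on GRCm38.p6, read 5′ to 3′ on the strand of the gene. Snap23 lies on the plus strand (chr2:120567421-120567720), Stx11 on the minus strand (chr10:12964210-12964509), Vamp4 on the plus strand (chr1:162570265-162570564, the upstream of its 2 entries) and Vamp5 on the minus strand (chr6:72380419-72380718). The first 3 genes were higher in the intestine and Vamp5 was lower. Capitals mark the letters GCGTG, the core of the site of the aryl hydrocarbon receptor (AHR) that the study followed in these cells, or CACGTG, an E-box that basic helix-loop-helix factors bind.
Snap23: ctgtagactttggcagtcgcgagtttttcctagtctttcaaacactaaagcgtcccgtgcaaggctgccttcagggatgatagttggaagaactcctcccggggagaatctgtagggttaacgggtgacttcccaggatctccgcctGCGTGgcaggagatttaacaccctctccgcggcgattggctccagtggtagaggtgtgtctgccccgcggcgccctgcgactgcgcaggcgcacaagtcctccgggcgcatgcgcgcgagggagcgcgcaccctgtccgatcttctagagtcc
Stx11: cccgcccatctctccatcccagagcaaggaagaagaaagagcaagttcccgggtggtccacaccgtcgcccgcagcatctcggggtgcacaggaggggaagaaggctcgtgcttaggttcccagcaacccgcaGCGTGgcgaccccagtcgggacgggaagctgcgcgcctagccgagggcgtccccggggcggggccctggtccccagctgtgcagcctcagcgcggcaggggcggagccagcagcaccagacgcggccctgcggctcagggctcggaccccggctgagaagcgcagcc
Vamp4: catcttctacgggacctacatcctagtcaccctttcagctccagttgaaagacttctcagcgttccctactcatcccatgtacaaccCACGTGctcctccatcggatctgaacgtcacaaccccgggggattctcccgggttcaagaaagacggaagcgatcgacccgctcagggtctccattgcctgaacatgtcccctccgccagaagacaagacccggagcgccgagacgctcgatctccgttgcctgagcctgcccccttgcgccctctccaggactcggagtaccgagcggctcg
Vamp5: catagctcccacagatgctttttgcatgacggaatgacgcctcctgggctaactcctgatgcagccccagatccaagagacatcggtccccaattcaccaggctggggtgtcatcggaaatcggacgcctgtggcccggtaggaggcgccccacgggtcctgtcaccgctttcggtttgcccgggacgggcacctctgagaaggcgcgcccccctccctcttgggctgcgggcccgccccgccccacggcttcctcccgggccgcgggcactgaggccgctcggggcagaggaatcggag

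GCGTG began 103 bases before the start in Snap23 and 117 bases before it in Stx11, and CACGTG 163 bases before it in Vamp4. The downstream entry of Vamp4 held no match. Vamp5 held neither. Across the members 46 of 60 had an entry, with 57 windows in all. GCGTG, searched on both strands, was in 42.1% of member windows against 32.4% of all 32851 windows in the table, and in 11 of 21 windows of members called higher, 3 of 7 of members called lower and 10 of 29 of the others. CACGTG was in 12.3% of member windows against 7.15% of all, and TGANTCA, the AP-1 motif, in 7.02% against 7.81%. The letters of none of these motifs contain another, although matches that lie side by side can share bases. Among windows not shown, those of Syt15 and Sytl3, called higher, held none of these motifs. Those of Stx2 and Snap29, called lower, held GCGTG on the opposite strand. These matches describe sequence only.

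Depth ran from 11508002 to 21289164 gene reads per library. A normalised count is the number of reads divided by the size factor of the library, and a difference is the intestinal mean less the bone marrow mean of the deposited log2 values, given ± the standard error (SE) of limma. A gene was called when its 2-sided limma p-value, adjusted over all genes by Benjamini-Hochberg, was under 0.05. All 8 eosinophil markers were detected in both tissues, at 0.0193% to 0.0296% of reads in bone marrow and 0.216% to 0.269% in the intestine, 5 called higher and 3 lower in the intestine. Neutrophil precursor genes, 11 of 12 listed, took 3.02% to 3.46% of reads in bone marrow, above the eosinophil list in each of these libraries, and 0.00343% to 0.00389% in the intestine. Among these 8 markers, Siglecf, whose protein was used in sorting, held a mean of 579.9 normalised counts in marrow and 3076 in the intestine, and Ccr3 70.9 and 16351. The 3 lower markers went the other way, with 350 and 20.6 for Epx, 1831 and 147 for Prg2, and 47.4 and 6.54 for Prg3. Epithelial genes took 0.00145% to 0.00195% and 0.0438% to 0.277%, with the highest share in SI_6, and macrophage and dendritic cell genes 0.00553% to 0.00615% and 0.175% to 0.198%. The intestinal share of the latter was mostly Itgax and Adgre1, with means of 14221 and 13672 normalised counts, against 1301 for Csf1r, the next. Of the 12 genes 8 were called higher, and Cd163, Mrc1, Fcgr1 and Flt3 were not called. Mast cell and basophil genes took 0.0383% to 0.0507% and 0.0503% to 0.106%, although 2 of 12 were called higher and 5 lower. Stromal and endothelial genes took 0.00349% to 0.00444% and 0.0561% to 0.0649%, with 11 of 12 called higher. Pancreatic acinar genes, markers of another secretory cell, took 0.000207% to 0.000388% in marrow, where Try4 was at 0, and 0.0322% to 0.0399% in 3 intestinal libraries but 0.352% in SI_7, above the eosinophil list of that library (0.263%), and 10 of 11 were called higher. T and NK cell genes took 0.0435% to 0.054% in marrow and 0.000978% to 0.00153% in the intestine. That share was mostly Nkg7 in marrow (means of 6750 and 15.5 normalised counts), the 1 gene of 10 called lower. The T cell genes Cd3e, Cd4 and Cd8a were the 3 called higher, and 6 were not called. B and plasma cell genes took 0.00233% to 0.00438% and 0.00358% to 0.0183%, with 2 of 8 called higher and 2 lower. All 14 genes of the dissociation response were called higher in the intestine, at 0.563% to 0.719% of reads against 0.00824% to 0.01%. In bulk samples, fewer cells of a type and less RNA per cell cannot be told apart, and the part of these other transcripts in the results was not tested unless a value is given.

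Intestinal eosinophils held more RNA of several fusion genes, among them Vamp4 (24.0-fold by means), Stx11 (16.1-fold), Vamp2 (9.15-fold) and Snap23 (6.12-fold), while other members of the same families were not called or were lower. Of 60 members, 28 were called (34.9% of all genes), 22 higher in the intestine (22% of all genes) and 6 lower (12.9% of all genes). The 6 lower members were Vamp5, Stx2, Sytl1, Stxbp4, Vamp8 and Snap29. Of the marker lists, 11 of 11 neutrophil precursor genes were called lower and 15 of 15 epithelial genes higher. The part of such cells in the values of the members was not tested. The libraries of the tissues did not overlap for 28 members (34.3% of all genes), with small intestine above bone marrow for 21 and below for 7. Among the 41 members with a mean of at least 10 reads, 24 were called, against 63.1% of all genes at that depth, so members were called about as often as genes at large. Of these, 18 were higher, against 34.6% of all genes, and 6 lower, against 28.6%. The libraries of the tissues did not overlap for 27 of the 41, against 67.4% of all genes. The median difference of the 41 was 0.57, against 0.12 over all genes of that depth. When each library was centred on its median over all genes, which moved the median difference of all genes from 0.37 to -0.53, 17 members were called higher and 10 lower. Without BM_1, 3 were called lower, since Vamp8, Snap29 and Stxbp4 no longer passed, and without BM_5 and SI_6, a choice made after the data were seen, 27 were called higher and 6 lower.

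**Figure D1:**
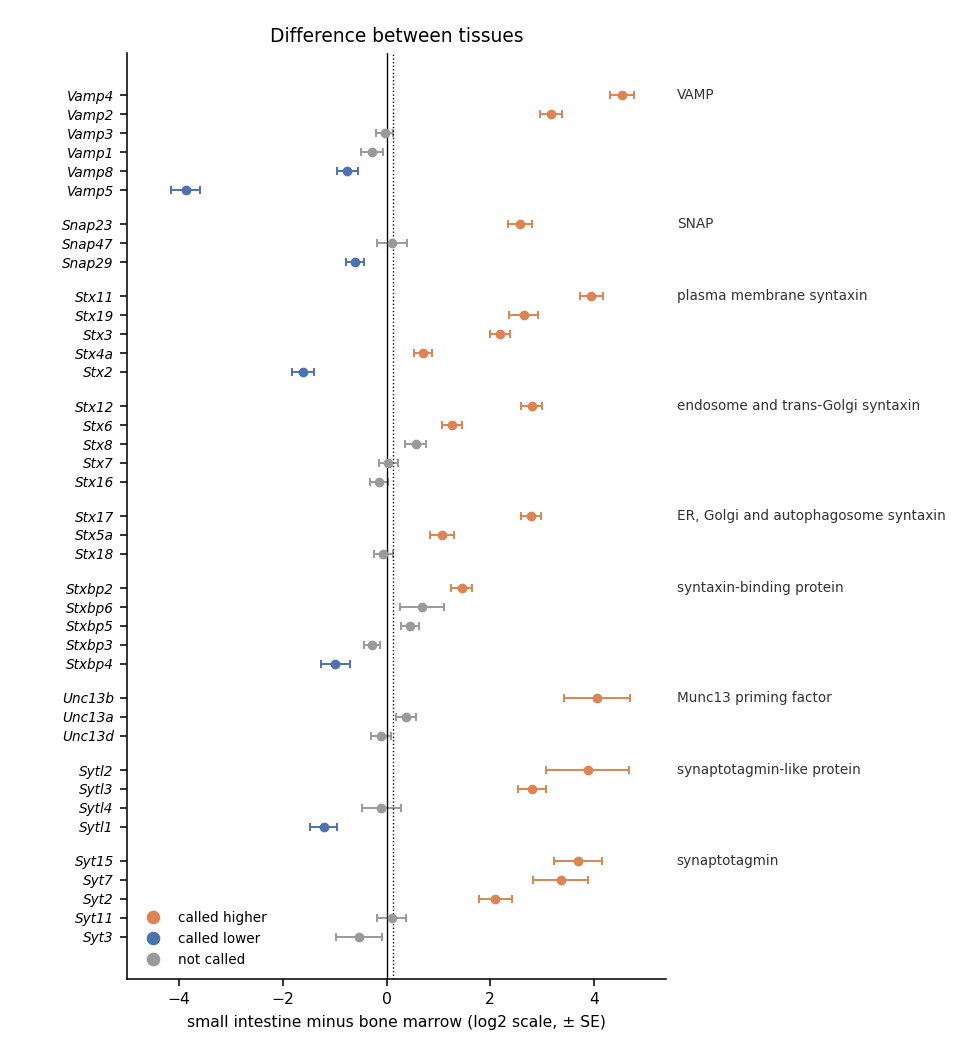
Difference between tissues (intestine less marrow, log2 scale as deposited, ± limma SE) for 39 of the 41 members with a mean of at least 10 reads, grouped by role, with called members in colour and the dotted line at the median of all genes of that depth, 0.12. Within most families some members lay far to the right (Vamp4 at 4.54, Stx11 at 3.95) while others lay near 0 or to the left (Vamp3 at -0.04, Vamp5 at -3.88).

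Among the vesicle SNAREs, 2 of 6 were called higher, 2 lower and 2 were not called. All 6 had a mean of at least 10 reads, where 34.6% of all genes were called higher and 28.6% lower, so these counts were near those of genes at large. Vamp4, a SNARE of the trans-Golgi network and recycling endosomes (ENSMUSG00000026696; GRCm38 chromosome 1, 162570515 to 162599084), held 381, 413, 321 and 347 normalised counts in bone marrow and 9767, 10629.7, 5767 and 8935 in the intestine. The tissues were far apart, 24.0-fold by their means, and SI_6 was the lowest intestinal library. On the deposited log2 scale this was the largest rise among the members (4.54 ± 0.24, limma adjusted p = 3.79e-06), although by means Syt7, with few reads, rose 29-fold, and limma voom on the reads put Sytl2, Syt15, Syt7 and Unc13b above Vamp4. Vamp2, the synaptobrevin of secretory vesicles in neurons and granulocytes (ENSMUSG00000020894; chromosome 11, 69088490 to 69092384), held 509, 463, 403 and 396 in bone marrow and 4274, 4587, 3030.2 and 4305 in the intestine. Again no libraries overlapped, and Vamp2 rose by 3.17 ± 0.21 (limma adjusted p = 1.19e-05).

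Vamp3, or cellubrevin, a widely expressed relative of Vamp2 on recycling endosomes, held 1591, 1479.7, 1588 and 1494 normalised counts in bone marrow and 1396, 1591, 1569 and 1439 in the intestine. These ranges overlapped, with a difference of -0.04 ± 0.17 (limma adjusted p = 0.876). Vamp8, a SNARE of late endosomes and of granules in platelets, mast cells and exocrine cells, held 1087, 1173, 1055 and 878 in bone marrow and 596, 787, 560.0 and 539 in the intestine. Every intestinal library was below every bone marrow library. The difference of -0.76 ± 0.20 (limma adjusted p = 0.0192) lost the call without BM_1 (-0.74, limma adjusted p = 0.0501) and when tested against 1 log2 unit.

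Vamp5, or myobrevin, first described in muscle (ENSMUSG00000073002; chromosome 6, 72368794 to 72380468), fell most of all members. It held 248, 260.2, 204 and 257 normalised counts in bone marrow and 24.1, 9.48, 8.73 and 13.9 in the intestine, without overlap, a difference of -3.88 ± 0.29 (limma adjusted p = 2.06e-05). Vamp5 and Vamp8 are neighbours on the minus strand of chromosome 6, with 4754 bases between them. Vamp1, the neuronal relative of Vamp2, had a mean of 528 ± 45.1 in bone marrow and 440.5 ± 90.8 in the intestine (SD, n = 4 each) and was not called (-0.28, limma adjusted p = 0.358).

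Levels of different genes were compared per length, as normalised counts per kb of exon. Vamp3 and Vamp8 made up most of the VAMP reads per kb in bone marrow, with shares of 40.3% ± 2.44 and 34.2% ± 2.34 (SD, n = 4), and Vamp4 and Vamp2 those in the intestine, with 49.8% ± 4.08 and 27.8% ± 0.952. In bone marrow Vamp4 had 6.04% and Vamp2 8.76%. In small intestine Vamp3 had 14.0% and Vamp8 7.10%, although the count of Vamp3 itself was level, because the family sum was higher, at 3821 ± 676 against 1324 ± 78.5 normalised counts per kb. Vamp5 had 6.78% in bone marrow and 0.136% in the intestine. Vamp3 was above Vamp8 in all 4 bone marrow libraries, and Vamp4 above Vamp2 in all 4 intestinal ones. The shares are of the 6 VAMP genes of known role in the table, and Vamp7 was not analysed here.

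**Figure D2:**
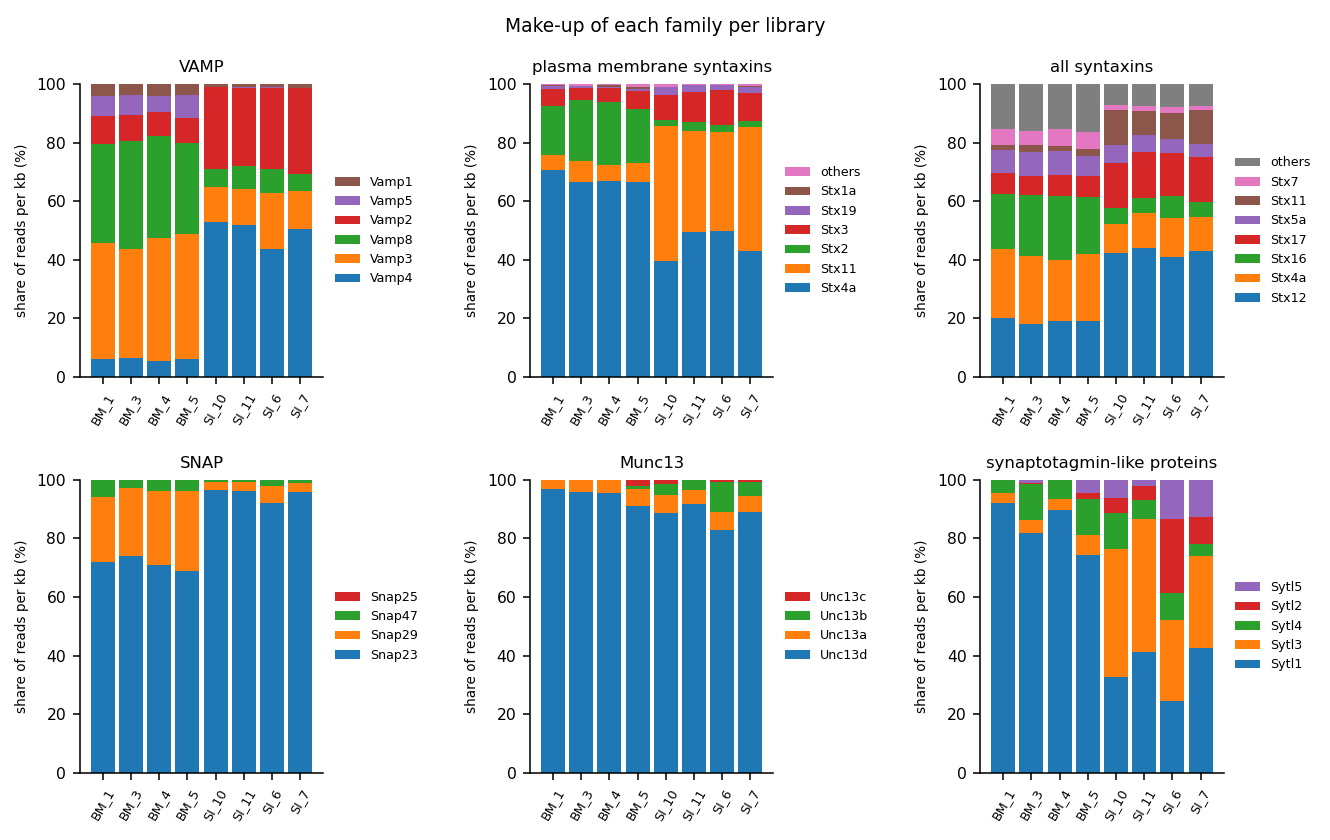
Share of each gene (%) in the summed normalised counts per kb of its family, 1 bar per library, with minor genes joined as others, for the VAMP, plasma membrane syntaxin, all syntaxin, SNAP, Munc13 and synaptotagmin-like families. Vamp4 rose from 6.04% to 49.8% of the VAMP sum and Stx11 from 5.96% to 39.0% of the plasma membrane syntaxin sum on average, while Snap23 and Unc13d led their families in all 8 libraries.

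Of the SNAP proteins, which give the target side a pair of coils, Snap23 rose, Snap29 fell and Snap47 was not called. Snap23, the form found outside neurons and the partner of Stx3, Stx4 and Stx11 in blood cells (ENSMUSG00000027287; chromosome 2, 120567671 to 120601255), held 1495, 1445, 1300.4 and 1247 normalised counts in bone marrow and 10178, 9692, 5525 and 8188 in the intestine. The intestinal libraries were 6.12-fold higher by their means, with SI_6 the lowest of them, and the difference was 2.58 ± 0.24 (limma adjusted p = 6.94e-05). Per kb, Snap23 made up 71.5% ± 2.12 of the family in bone marrow and 95.2% ± 2.03 in the intestine.

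Snap29, which acts in endosomes and in the fusion of autophagosomes with lysosomes, held 369, 362, 374 and 392 normalised counts in bone marrow and 225, 247, 282 and 227 in the intestine. Bone marrow was higher in every library (-0.61 ± 0.17, limma adjusted p = 0.0245), but the call was lost without BM_1 or without BM_4 (limma adjusted p = 0.0509 and 0.0521). Snap47 had means of 48.9 ± 19.5 and 51.1 ± 10.8 normalised counts, and shares 307 exon bases with Jmjd4 on the opposite strand. Whether counting used the strand is not given in the sources used here. Snap25, the neuronal form, held 9 reads in bone marrow and 44 in the intestine over 4 libraries each.

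Of the 15 syntaxins, 8 were called higher and 1 lower, with 4 of the 7 plasma membrane syntaxins higher. All but 1 of the 15 had a mean of at least 10 reads, where 34.6% of all genes were called higher and 28.6% lower. Stx11, a syntaxin of immune cells that is needed for the release of cytotoxic granules (ENSMUSG00000039232; chromosome 10, 12938209 to 12964298), held 126, 168, 126 and 141 normalised counts in bone marrow and 2699, 2010.2, 1669 and 2643 in the intestine. The libraries were apart by more than the whole spread within a tissue, and the means differed 16.1-fold (3.95 ± 0.23, limma adjusted p = 5.85e-06). Stx3, which acts in apical membranes and in granulocyte granule release, held 192, 135, 152 and 192 in bone marrow and 673, 798, 808 and 807 in the intestine. It rose by 2.19 ± 0.20 (limma adjusted p = 6.15e-05), with SI_10 set below 3 nearly equal libraries.

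Stx4a, the mouse syntaxin 4 gene of the plasma membrane, held 973, 899, 881 and 831 normalised counts in bone marrow and 1303, 1629.8, 1399 and 1505 in the intestine. No library overlapped, and the difference was 0.70 ± 0.17 (limma adjusted p = 0.0136), but its sign turned, to -0.20 without a call, when libraries were centred on the median of all genes. Stx2, or epimorphin, was the single syntaxin that fell (ENSMUSG00000029428; chromosome 5, 128984557 to 129008574). It held 447, 546, 553 and 448 in bone marrow and 145, 213, 136 and 149.8 in the intestine, a difference of -1.62 ± 0.21 without overlap (limma adjusted p = 0.000477).

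Stx19, an epithelial syntaxin without a membrane anchor, rose from 10.6 ± 3.23 to 85.4 ± 22 normalised counts (2.64 ± 0.27, limma adjusted p = 0.000133). Among intestinal libraries Stx19 was lowest in SI_6, as were Vamp4, Vamp2, Snap23 and Stx11, while Unc13b was highest there. SI_6 had the highest share of epithelial genes, and the part of such cells in the values of Stx19 was not tested. Per kb, Stx4a was the leading plasma membrane syntaxin of bone marrow with 67.7% ± 2.02 of their sum, followed by Stx2 with 19.4% ± 2.25. In small intestine Stx4a had 45.5% ± 5.12 and Stx11 39.0% ± 6.13, while Stx2 had 2.58%. Stx4a and Stx11 did not keep 1 order in the intestine, since Stx11 was above Stx4a in SI_10.

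The syntaxins of endosomes, the Golgi and autophagosomes held some of the most abundant intestinal members. Stx12, of recycling endosomes, held 1138, 949.5, 1091 and 951 normalised counts in bone marrow and 7305, 8304, 5762 and 7582 in the intestine. With no overlap it rose by 2.80 ± 0.19 (limma adjusted p = 1.5e-05). Stx17, which closes autophagosomes onto lysosomes together with Snap29 and Vamp8 (ENSMUSG00000061455; chromosome 4, 48124915 to 48186507), held 730.2, 631, 755 and 681 in bone marrow and 4952, 5580.4, 3866 and 5046 in the intestine. Stx17 rose by 2.78 ± 0.19 (limma adjusted p = 1.47e-05), whereas its partners Snap29 and Vamp8 were the lower members described above.

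Stx5a, of the route from endoplasmic reticulum to Golgi, held 821, 778, 861 and 606 normalised counts in bone marrow and 1894, 1934, 1197 and 1471 in the intestine. It rose by 1.07 ± 0.23 (limma adjusted p = 0.00691), with 0.17 and no call after centring on the median of all genes. Stx6, a partner of Vamp4 between endosomes and trans-Golgi, rose from 427 ± 26.7 to 1041 ± 179 (1.26 ± 0.20, limma adjusted p = 0.00127). Stx16, a further syntaxin of that complex, held 1306, 1354, 1543 and 1189 in bone marrow and 1181, 1201, 1342 and 1139.9 in the intestine. These ranges overlapped and Stx16 was not called (-0.14 ± 0.18, limma adjusted p = 0.538).

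Stx7, of late endosomes, held 431, 358, 451 and 414 normalised counts in bone marrow and 417, 480.0, 413 and 384 in the intestine. The tissues overlapped (0.03 ± 0.18, limma adjusted p = 0.902). Stx8, its partner, had means of 217 ± 24.2 and 325 ± 55.6 and missed the threshold (0.57 ± 0.20, limma adjusted p = 0.0616). With limma voom on the reads Stx8 passed (0.55, limma voom adjusted p = 0.0237). Stx18, of the endoplasmic reticulum, had 216 ± 17.8 and 208 ± 24.8. The exons of Stx18 share 574 bases with Nsg1 on the opposite strand. Among all syntaxins per kb, Stx4a with 22.5%, Stx16 with 20.2% and Stx12 with 19.2% shared the lead in bone marrow, and in the intestine Stx12 had 42.5% ± 1.40 and Stx17 15.3% ± 0.502. The sum of the family was 1683 ± 109 normalised counts per kb in bone marrow and 5322 ± 629 in the intestine.

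**Figure D3:**
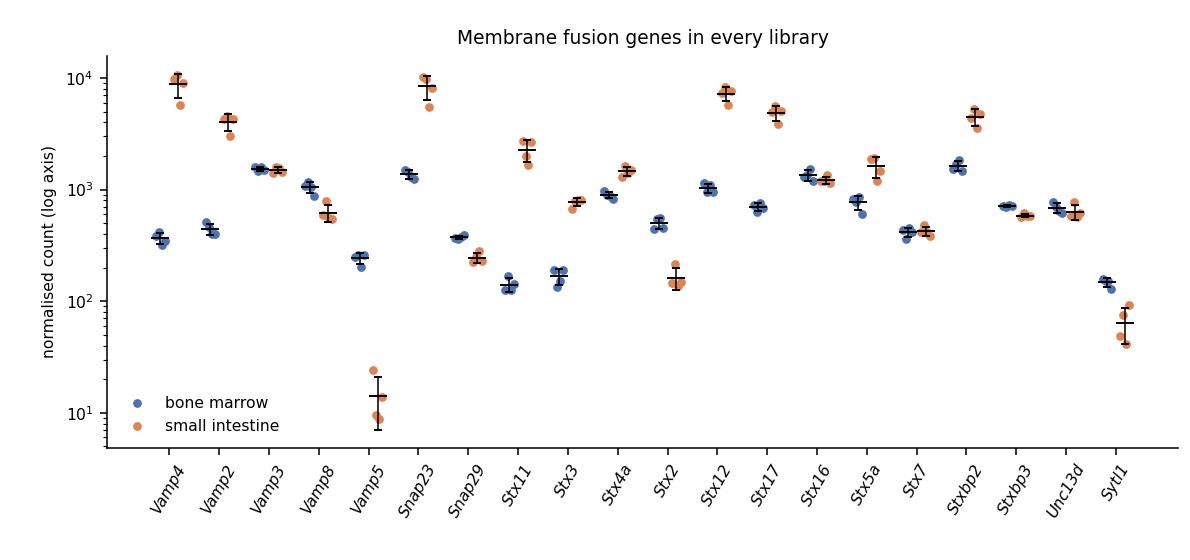
Normalised counts (log axis) of abundant members in every library, with points for libraries and bars for the mean ± SD (n = 4 per tissue). The points of the tissues lie far apart for Vamp4, Vamp2, Snap23, Stx11, Stx12 and Stx17, in the opposite direction for Vamp5, and overlap for Vamp3, Stx7, Stx16 and Unc13d.

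Among the syntaxin-binding proteins, Stxbp2 rose, Stxbp4 fell and 5 were not called (22% of all genes were called higher and 12.9% lower). Of these proteins 6 had a mean of at least 10 reads, where 34.6% of all genes were called higher and 28.6% lower. Stxbp2, or Munc18-2, the partner of Stx11 and Stx3 in leukocyte granule release (ENSMUSG00000004626; chromosome 8, 3630955 to 3643644), held 1525, 1702, 1832 and 1463 normalised counts in bone marrow and 4339.7, 5319.6, 3531 and 4802 in the intestine. No library overlapped and the difference was 1.45 ± 0.20 (limma adjusted p = 0.000656), with 0.55 and no call after centring on the median of all genes (limma adjusted p = 0.357). Stxbp3, or Munc18c, the partner of syntaxin 4, held 712, 698, 722 and 707 in bone marrow and 564, 610.4, 579.6 and 579.7 in the intestine. The gap between the tissues was wider than the range within either. The difference of -0.28 ± 0.16 was not called (limma adjusted p = 0.216), but passed when genes under a mean of 10 reads were left out (limma adjusted p = 0.0302), after centring on the median of all genes, without SI_10, and without BM_5 and SI_6.

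Stxbp4, or Synip, held 170.1, 143, 85.2 and 100.4 normalised counts in bone marrow and 73.3, 43.9, 53.5 and 69.3 in the intestine. The ranges did not overlap, but the bone marrow libraries were widely spread, and the call (-0.99 ± 0.28, limma adjusted p = 0.0252) was lost without BM_1, BM_3, SI_11 or SI_6. Stxbp5, or tomosyn, which blocks SNARE assembly, had 6114 ± 172 normalised counts in marrow and 8399 ± 1035 in the intestine. It was not called although the tissues did not overlap (0.45 ± 0.18, limma adjusted p = 0.0862). With limma voom on the reads Stxbp5 passed (0.45, limma voom adjusted p = 0.000324). Stxbp6, or amisyn, had 20.7 ± 9.91 and 36.8 ± 18.2. Per kb, Stxbp2 was 42.8% ± 2.49 of the family in bone marrow and 62.7% ± 2.01 in the intestine, and Stxbp5 was 40.5% ± 1.75 and 29.6% ± 0.847. In bone marrow these 2 genes did not keep 1 order, since Stxbp5 was ahead in BM_5.

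Unc13d, or Munc13-4, the priming factor of granules in cytotoxic cells, mast cells and neutrophils (ENSMUSG00000057948; chromosome 11, 116062095 to 116077961), held 778, 701, 647 and 612 normalised counts in bone marrow and 577, 779, 568 and 613 in the intestine. These ranges overlapped, and the difference was -0.12 ± 0.19 (limma adjusted p = 0.66). Unc13d thus was not called while Stx11 and Stxbp2, with which it acts in the release of cytotoxic granules, were called higher. It had 94.8% ± 2.58 of the Munc13 reads per kb in bone marrow and 88% ± 3.82 in the intestine, and the family sum was 154 ± 13.1 and 154 ± 18.8 normalised counts per kb, and without division by length 786 ± 49.4 and 942 ± 107 normalised counts. Unc13a, or Munc13-1, had means of 83.7 ± 16.1 and 109 ± 7.92 and was not called (0.38, limma adjusted p = 0.186). Its exons share 495 bases with Colgalt1 on the opposite strand.

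Unc13b, or Munc13-2 (ENSMUSG00000028456; chromosome 4, 43058953 to 43264871), held 2.30, 4.56, 3.83 and 35.3 normalised counts in bone marrow and 109, 133, 347 and 166 in the intestine. BM_5 stood above the other bone marrow libraries and SI_6 above the other intestinal ones, without overlap between tissues (4.06 ± 0.64, limma adjusted p = 0.00132). Sytl2, a Rab27 effector that tethers vesicles at the plasma membrane, held 0, 2.61, 1.91 and 19.5 in bone marrow and 40.5, 47.4, 236 and 108 in the intestine. The same libraries were highest, and the difference was 3.88 ± 0.80 (limma adjusted p = 0.00545). Syt7, the calcium sensor of lysosome exocytosis, held 0, 0, 1.91 and 2.79 in bone marrow and 20.8, 21.3, 72 and 22.2 in the intestine. SI_6 was again set apart from 3 similar libraries (3.36 ± 0.53, limma adjusted p = 0.00128).

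The 3 genes were highest in the library with the most epithelial RNA. Of 15 epithelial marker genes all were called higher in the intestine, where they took 0.0438%, 0.0446%, 0.277% and 0.123% of reads in SI_10, SI_11, SI_6 and SI_7, and Tff3 was at 0 in bone marrow. Of 18 neuronal and enteroendocrine genes 10 were called higher and 1 lower, with 0.00161% to 0.00629% of reads in the intestine, again highest in SI_6, against 0.000424% to 0.00111% in bone marrow, where Cck and Sct were at 0. BM_5, the highest bone marrow library for Unc13b and Sytl2, also held reads for the most genes, 30886, against 19713 to 24592 in the other bone marrow libraries. Without SI_6 the differences were 3.72 for Unc13b, 3.40 for Sytl2 and 2.96 for Syt7, and without both SI_6 and BM_5 they were 4.35, 4.05 and 3.26, all still called. The intestinal libraries that were kept also held epithelial reads. The part of epithelial or enteroendocrine cells, and of the number of genes with reads in BM_5, was not tested.

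**Figure D4:**
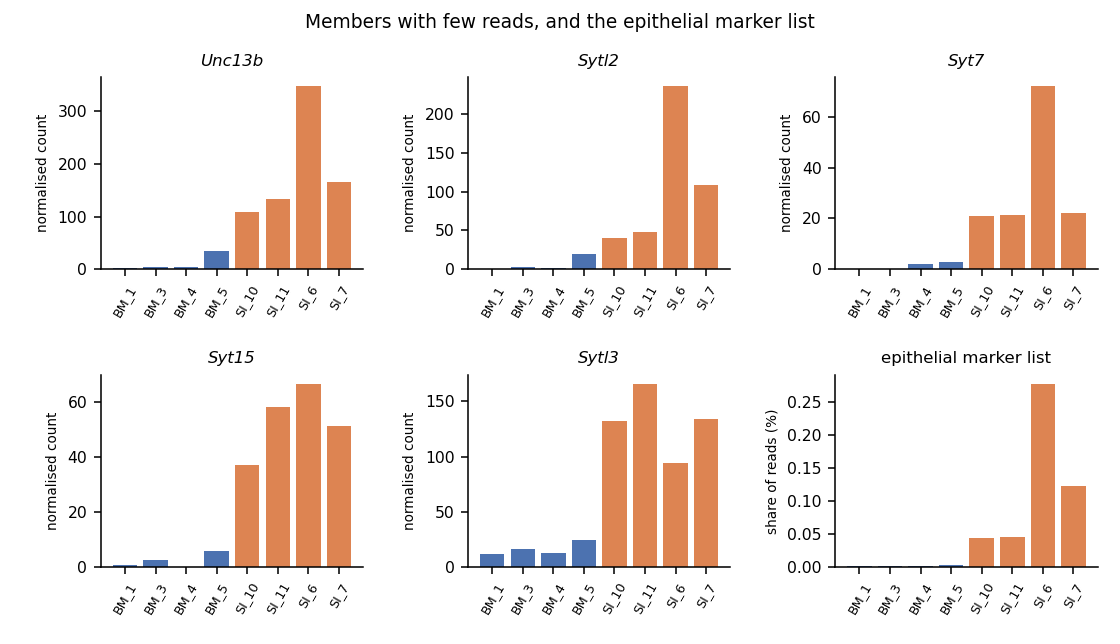
Normalised counts per library of 5 members with few reads, and the share of reads (%) in 15 epithelial marker genes. SI_6 is the highest bar for Unc13b (347), Sytl2 (236), Syt7 (72), Syt15 (66.6) and the epithelial list (0.277%), whereas for Sytl3 it is the lowest of the intestinal libraries (93.9).

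Of the synaptotagmin-like proteins, which bind Rab27 on granules, Sytl1 fell while Sytl3 rose. Sytl1 (ENSMUSG00000028860; chromosome 4, 133253090 to 133263113) held 158, 151, 152 and 129 normalised counts in bone marrow and 49.2, 74.7, 41.5 and 91.5 in the intestine. All bone marrow libraries were higher (-1.22 ± 0.27, limma adjusted p = 0.00757). Sytl3 (ENSMUSG00000041831; chromosome 17, 6659093 to 6738044) held 11.5, 15.7, 12.4 and 24.2 in bone marrow and 132, 166, 93.9 and 135 in the intestine, a rise of 2.81 ± 0.27 without overlap (limma adjusted p = 8.83e-05). Sytl4, or granuphilin, held 16.1, 47, 22 and 42.8 in bone marrow and 38.3, 23.7, 32.7 and 18 in the intestine. It overlapped fully (-0.10 ± 0.37, limma adjusted p = 0.858).

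Sytl1 thus made up 84.5% ± 8.08 of the reads per kb of this family in bone marrow and 35.3% ± 8.45 in the intestine, where Sytl3 had 37.0% ± 8.94. Sytl3 had 4.53% ± 1.63 in bone marrow. The sums were 69.5 ± 2.71 and 71.1 ± 10.6 normalised counts per kb, and without division by length 204 ± 19.7 and 347 ± 68.3 normalised counts.

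Of the 17 synaptotagmins, 5 were called higher (22% of all genes) and none lower (12.9% of all genes), but 12 had a mean under 10 reads. Syt15, a synaptotagmin without calcium binding (ENSMUSG00000041479; chromosome 14, 34219595 to 34230420), held 0.766, 2.61, 0 and 5.58 normalised counts in bone marrow and 37.2, 58.1, 66.6 and 51.3 in the intestine. The tissues were apart by more than the spread within each (3.69 ± 0.46, limma adjusted p = 0.000361). Syt11, a synaptotagmin of recycling endosomes and lysosomes, held 26.8, 14.3, 27.8 and 13.9 in bone marrow and 21.9, 23.7, 26.2 and 15.3 in the intestine. It overlapped (0.10 ± 0.28, limma adjusted p = 0.814). Syt2, a fast calcium sensor also described in mast cells, rose from 4.50 ± 3.14 to 28.6 ± 8.11 (2.10 ± 0.32, limma adjusted p = 0.00106), and Syt3 had 11.5 ± 7.45 and 6.82 ± 4.29 without a call (-0.54, limma adjusted p = 0.413). The synaptotagmin sum was 15.6 ± 9.66 normalised counts per kb in bone marrow, of which BM_5 held 29.8, and 42.2 ± 11.7 in the intestine, far below the sums of the VAMP and syntaxin families.

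The 19 members under a mean of 10 reads were Snap25, Stx1a, Stxbp5l, Unc13c, Sytl5, Syt1, Syt4, Syt5, Syt6, Syt8, Syt9, Syt10, Syt12, Syt13, Syt14, Syt16, Syt17, Vamp9 and the pseudogene Stxbp3-ps. Of these, 4 were called higher, namely Snap25, Sytl5, Syt1 and Syt13, and none lower. Over all genes 22% were called higher and 12.9% lower. Of the 4937 genes called lower, 4630 had a mean of at least 10 reads, as had 5603 of the 8465 called higher. Calls of lower were thus rare among the 22177 genes under that mean. With so few reads differences between the tissues were poorly resolved, and 3 of these 4, all but Syt13, overlapped between tissues. Over all genes 34.3% did not overlap.

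The core list of granule fusion genes joins genes described in leukocyte degranulation across families. It held 20 genes, of which 17 were among the members. Of these 17, 9 were called higher, 2 lower and 6 not called, with a median difference of 0.70. All 17 had a mean of at least 10 reads, and at that depth 63.1% of all genes were called (34.6% higher and 28.6% lower), so the share called, 11 of 17, was near that of genes at large. The higher ones were Snap23, Vamp2, Stx3, Stx4a, Stx11, Stx17, Stxbp2, Sytl2 and Sytl3, and the lower ones Vamp8 and Sytl1. Transcripts tied to degranulation moved in different directions. Cd63, a tetraspanin of granule membranes that reaches the cell surface on degranulation, held 5336, 5168, 4922 and 4075 normalised counts in bone marrow and 1853, 2489, 1557 and 1674 in the intestine. The tissues did not overlap, and Cd63 fell by 1.38 on the log2 scale (SE 0.22, limma adjusted p = 0.00123). Cd69, a surface marker of activation, held 239, 202, 122 and 141 in bone marrow and 1632, 1448, 1035 and 1474 in the intestine, a rise of 2.99 ± 0.27 (limma adjusted p = 6.53e-05).

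Of the remaining degranulation markers, the tetraspanin Cd9 rose by 3.35 ± 0.20 and the lysosomal membrane protein Lamp2 by 0.87 ± 0.19 (limma adjusted p = 6.42e-06 and 0.00766), while Lamp1 was not called (0.32, limma adjusted p = 0.247). The cargo of the granules was lower, with 5 of 8 genes called lower and none higher. Of the 6 with a mean of at least 10 reads 5 were called lower, against 28.6% of all genes at that depth. Epx, the eosinophil peroxidase, held 336, 363, 303 and 398 normalised counts in bone marrow and 29.5, 27.3, 13.1 and 12.5 in the intestine. Epx fell by 3.94 on the log2 scale without overlap (limma adjusted p = 2.19e-05). Prg2, Prg3 and Ear1 fell by 3.62, 2.46 and 4.28, and Ear2 from a mean of 165 to 7.30 normalised counts. Ear6 missed the threshold (-1.24, limma adjusted p = 0.128), and Ear10 and Ear14 held at most 2.18 normalised counts in any library. The ribonucleases have near-identical copies that may share reads. These are transcript levels, and neither surface CD63 nor granule release was measured in the libraries.

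Around the fusion proteins, 94 other genes of the pathway were counted, of which 33 were called higher, 16 lower and 45 not called, with a median difference of 0.30. After centring on the median of all genes these counts were 15 higher and 31 lower. Over all genes 22% were called higher and 12.9% lower. Most of the 94 were better covered than that: 84 averaged 10 reads or more, of which 31 were higher and 16 lower. At this depth 34.6% of all genes were called higher and 28.6% lower. Of 27 secretory Rab proteins and their effectors, 14 were higher and 2 lower, and of the 21 at this depth 12 were higher and 2 lower. The largest rise was that of Exph5, an effector of Rab27, at 2.88 ± 4.93 normalised counts in bone marrow and 128 ± 107 in the intestine (4.74 ± 0.78, limma adjusted p = 0.00165), highest in SI_6 with 278. Rab3d, a Rab of secretory granules, fell from 1368 ± 167 to 136 ± 30.8 (-3.31 ± 0.22, limma adjusted p = 1.3e-05). Rab27a and Rab27b, the docking Rabs that bind the synaptotagmin-like proteins, were picked after their values were seen. Rab27a had 3499 ± 134 and 2791 ± 445 without a call (-0.34, limma adjusted p = 0.211), and Rab27b rose from 3.59 ± 5.69 to 74.7 ± 46.4 (3.88 ± 0.66, limma adjusted p = 0.00196), highest in SI_6.

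**Figure D5:**
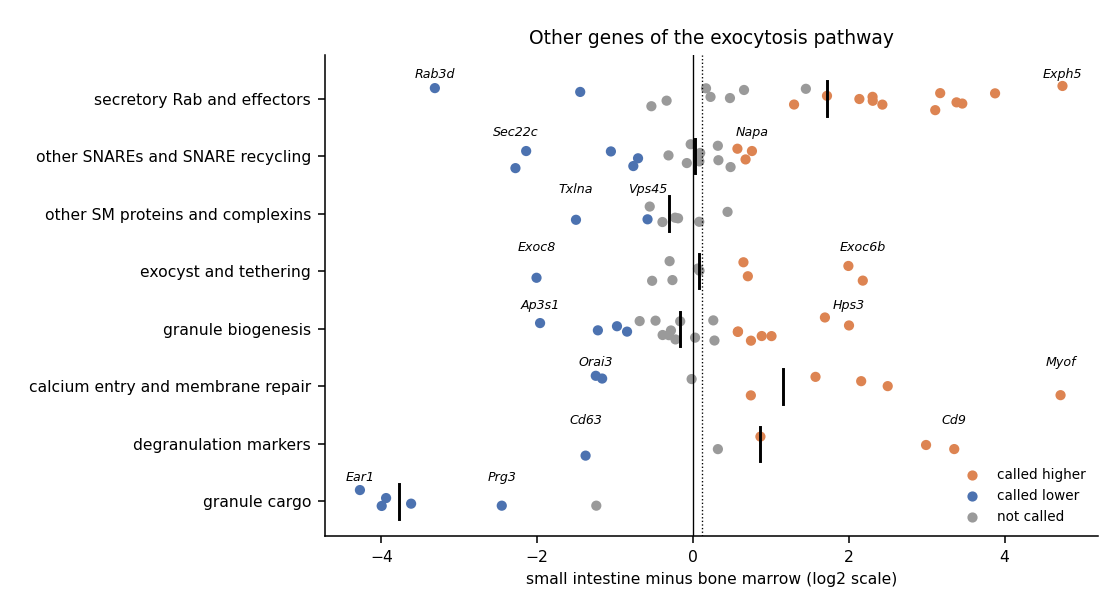
Difference between tissues (intestine less marrow, log2 scale as deposited) of the other exocytosis pathway genes that averaged at least 10 reads, by list, with vertical bars at list medians, the dotted line at the median of all genes of that depth (0.12) and the extreme called genes named. Rab genes and effectors reach furthest right (Exph5 at 4.74), and granule cargo lies furthest left (Ear1 at -4.28).

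Of 16 other SNAREs and recycling factors, 3 were higher and 5 lower, with the largest rise for Napa, which helps to take spent SNARE complexes apart (0.76 ± 0.21), and the largest fall for Sec22c, a SNARE-like protein of the early secretory route (-2.28 ± 0.19). None of 11 other syntaxin partners, Munc18 relatives and complexins was higher and 2 were lower, the syntaxin binder Txlna (-1.50 ± 0.18) and Vps45, the partner of Stx16 (-0.58 ± 0.18). Of 10 exocyst and tethering genes 4 were higher, led by Exoc6b (2.18 ± 0.17), and Exoc8 was lower (-2.01 ± 0.21), although both encode subunits of 1 complex. Granule biogenesis genes were split, with 7 of 21 higher, led by Hps3, of a complex that makes lysosome-related organelles (887 ± 113 and 3581 ± 538 normalised counts), and 4 lower, led by Ap3s1 of the AP-3 adaptor (-1.96 ± 0.20). Of 9 genes of calcium entry and membrane repair 5 were higher, led by Myof, the repair protein myoferlin (4.72 ± 0.47), and 2 lower, led by the calcium channel subunit Orai3 (-1.25 ± 0.19). The limma adjusted p-values of these genes lay between 2.85e-05, for Exoc6b, and 0.037, for Vps45. At a mean of at least 10 reads, which most genes of these lists reached, 34.6% of all genes were called higher and 28.6% lower.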

How the data were processed

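Reads of eosinophils from 2 tissues, 4 libraries each, were processed by the authors, who ran nf-core/rnaseq on GRCm38 (Ensembl release 86), counted reads per gene and applied the variance stabilisation of DESeq2 in R 4.0.3. The deposited values are on this log2 scale. For the aligner, the strandedness of counting and multi-mapped reads, the setting is not given in the sources used here. Deposited columns gave tissues but not single samples. Per the study the libraries came from 4 female mice per tissue, so p-values measure the spread between mice.

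Here the transformation was inverted from its shared lowest value, 0.92971568, which gave whole reads for 100% of values (tolerance 0.05, largest deviation 0.00628). Differences were fitted with limma 3.58.1 (R 4.3.3, constant prior, no covariate, no filter) on the deposited log2 values of all 38392 genes, in place of the count model of the study. In a test on simulated data false calls fell mostly among genes with few reads, so members under a mean of 10 reads are only counted. Gene lengths are exon unions and coordinates those of the GENCODE annotation of GRCm38, promoters are from RefSeq (GRCm38.p6). Tables and plots were made in Python 3.11.15 (pandas 2.3.3, numpy 2.4.6, matplotlib 3.10.9).

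Values per library are given for core granule fusion members, the 6 largest rises and falls among called members and the leading member per role and tissue, and means for the other members with at least 10 reads, except that 2 members are counted but not reported here. Of other pathway lists the largest called rise and fall are named, with all degranulation markers and granule cargo. The members, the lists and these rules were chosen with earlier results of these data known, and Rab27a and Rab27b after their values were seen. Alternatives were another prior, 3 scalings, 2 filters, a test against 1 log2 unit, limma voom on the recovered reads, each library left out, and BM_5 and SI_6 left out together, the last chosen after seeing the data, and for shares within a family no division by length. Depth was 11508002 to 21289164 reads per library and limits precision mainly for the 19 members with few reads.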

Additional observations from a re-analysis of the deposited data

Results flagged for a closer look

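Over 82 groups of 4 values, namely the 41 members with a mean of at least 10 reads, each in both tissues, the gap of an extreme library to its neighbour was set against the range of the group. In 4 groups this share passed the 95% critical value, where chance gives about 1 in 20, or 4.1 groups. BM_5 was set above the other bone marrow libraries for Unc13b, with a gap of 0.931 of the range (35.3 normalised counts against 2.30 to 4.56), and for Sytl2, with 0.866 (19.5 against 0 to 2.61). SI_6 was set above the other intestinal libraries for Syt7, with 0.973 (72 against 20.8 to 22.2). SI_10 was set below them for Stx3, with 0.925 (673 against 798 to 808). All 4 genes kept their call when the library concerned was left out.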

How the results depend on the processing

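Of 28 members given by library, 21 were called, 13 of these kept their call in each of 17 alternatives and 8 lost it in at least 1. Over 476 pairs of member and alternative, the call was lost in 18, gained in 4 and the sign turned in 13. Against a difference of 1 log2 unit, 15 members were called, 14 higher and 1 lower, and of the other pathway genes 14 higher and 5 lower, since that test asks for larger differences. With libraries centred on the median of all genes, 10 members were called lower, and 15 other pathway genes were higher and 31 lower. Under that centring the sign turned for Stx4a (-0.20), Stx7 (-0.87) and Syt11 (-0.80). Stx4a was the single called member whose sign turned, and it was then not called. Centring over genes with at least 10 reads gave -0.03 for Stx7, quantile normalisation -0.68 for Syt11, and leaving out BM_5 and SI_6 together -0.13 for Syt11. With each library left out in turn, members called ranged from 22 (without BM_1) to 34 (without BM_5), those higher from 19 to 28 and those lower from 3 (without BM_1) to 7 (without SI_10), and differences from -0.03 to 0.08 for Stx7, from -0.04 to 0.24 for Syt11 and from -0.35 to 0.11 for Sytl4. The cause was not tested. No member called in the analysis described above was called in the opposite direction in an alternative. Without division by length, Stxbp5 took 70.9% of its family in bone marrow and 61.7% in small intestine, where Stxbp2 went from 62.7% to 32.9%, and Stx11 then led the plasma membrane syntaxins there with 46.9%, while Vamp3 and Vamp8 in bone marrow and Vamp4 and Vamp2 in small intestine still led the VAMP genes. No paired analysis was possible because the columns of the tissues share no library numbers. Depth limits the 19 members with a mean under 10 reads.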
